A study of Mus musculus with 6 samples.

Results

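The EGF family of secreted growth factors and the ErbB receptors they bind were examined in the whole uterus of mice with floxed or deleted Nat10 alleles, through 10 genes taken by name: the ligand genes Egf, Areg, Ereg, Hbegf, Tgfa and Btc, and the receptor genes Egfr, Erbb2, Erbb3 and Erbb4. All 10 were found, each as 1 row, among the 20637 genes listed. The libraries hold poly(A) RNA of females on postnatal day 21, and 3 of them are labelled Nat10 f/f (both Nat10 alleles floxed, the controls) and the other 3 Nat10 d/d (Nat10 deleted). Nat10 encodes an acetyltransferase that modifies cytidines in RNA. The sources used here do not name the Cre line, the cells in which deletion took place, the strain, or whether animals were pooled or were littermates. Because nothing states that the 3 libraries of a group came from separate animals, p-values measure the spread between these libraries.

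EGF family ligands are made as membrane-anchored precursors and are released by cell-surface proteases. The products of Egf, Areg and Tgfa bind the EGF receptor, encoded by Egfr, while the products of Hbegf, Btc and Ereg bind both the EGF receptor and the Erbb4 product. Bound receptors pair with each other. The Erbb2 product has no known ligand of its own and acts as the favoured partner, and the Erbb3 product has little kinase activity and signals through its partners after binding neuregulins. In the adult mouse uterus, amphiregulin is known as a progesterone-induced epithelial gene and HB-EGF as an early signal at the site of the implanting embryo. The uterus on postnatal day 21 is still immature.

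Nat10 itself had values of 13.2, 16.4 and 9.95 FPKM in control replicates 1, 2 and 3, and 5.57, 5.23 and 5.53 FPKM in Nat10-deleted replicates 1, 2 and 3, so its groups did not overlap (FPKM is a fragment count divided by transcript length and library depth; exact permutation test, two-sided p = 0.1, the smallest that 3 libraries against 3 allow). The mean in deleted uteri was 41.4% of the control mean, a log2 difference of -1.11 (limma adjusted p = 0.669, unadjusted p = 0.000265). Relative sequencing depth, estimated from the lowest values, ranged from 0.804 to 1.02 times that of control replicate 1. All 10 p53 target genes were higher by mean in deleted uteri, 7 of them at a limma unadjusted p under 0.05, beside 2.68% of all tested genes. Without overlap 8 were higher, beside 6.12%. Their median deviation from the control mean, on the log2 scale, was -0.02, -0.02 and 0.09 in control replicates 1, 2 and 3. Nat10-deleted replicate 2 stood apart, at 1.43 against 0.41 and 0.39 in deleted replicates 1 and 3. Its proliferation markers had a median of 1.61 above the control mean. That median was -0.67 and -1.24 in deleted replicates 1 and 3 and 0.61, -0.82 and 0.02 in controls. Markers of the uterine cell types were present in all libraries, with summed values of 858 to 1160 FPKM for 12 epithelial genes, 3015 to 4281 FPKM for 10 stromal genes and 3838 to 4891 FPKM for 8 smooth muscle genes. By mean log2(FPKM + 1), 10 of 10 stromal genes and 7 of 7 endothelial genes were lower in deleted uteri, beside 43.4% of all tested genes. As for all genes tested, 0 of them passed an adjusted p of 0.05. The stromal genes were not all low in deleted replicate 2. Vim, Lum, Col1a1 and Col3a1 lay above every control there, with Col1a1 at 984 FPKM against 677 to 765 FPKM in controls. At a limma unadjusted p under 0.05, 3 of the 10 stromal genes (Mfap5, Wnt5a and Twist2) were lower. So was 1 of the 7 endothelial genes (Kdr), beside 2.3% of all tested genes. These 3 stromal genes and 2 of the 7 endothelial genes were lower without overlap between groups, beside 4.6% of all tested genes. Of the 12 epithelial genes, 2 were higher at an unadjusted p under 0.05, beside 2.68% of all tested genes. Without overlap 4 of the 12 were higher, beside 6.12%. Of the 5 mesothelial genes, 2 were lower by each measure. Control replicate 1 stood apart in markers of blood and fat: its 6 blood genes summed to 5581 FPKM against 709 to 2629 FPKM in the other libraries, and its 5 fat genes to 34 FPKM against 0.146 to 10.9 FPKM. Without this library limma called 0 of 12640 genes at an adjusted p under 0.05 and 359 at an unadjusted one, and the part of blood and fat RNA in the results was not tested. Whole tissue was sequenced, so that fewer cells of a type and less RNA per cell cannot be told apart.

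The levels of the 10 genes covered a wide range. Since FPKM is divided by transcript length, levels can be set against each other between genes. Averaged over the 6 libraries, the order was Erbb2 (17.4 FPKM), Egfr (9.58), Erbb3 (8.41), Tgfa (7.02), Hbegf (4.38), Btc (2.33), Erbb4 (1.28), Egf (0.238), Areg (0.058) and Ereg (0.0254). Erbb2 lay above Egfr in 6 of 6 libraries and their ranges did not overlap. Egfr and Erbb3 lay in this order in 5 of 6 libraries, as did Erbb3 and Tgfa, and their ranges overlapped. Tgfa exceeded Hbegf, and Hbegf exceeded Btc, in 6 of 6 libraries. The ranges of Btc and Erbb4, and of Erbb4 and Egf, did not overlap, and Areg exceeded Ereg in 4 of 6. Erbb2 ranked above 69.4% to 79.3% of all listed genes in each library, Tgfa above 52.2% to 63.7% and Egf above 30.6% to 34.3%.

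**Figure D1:**
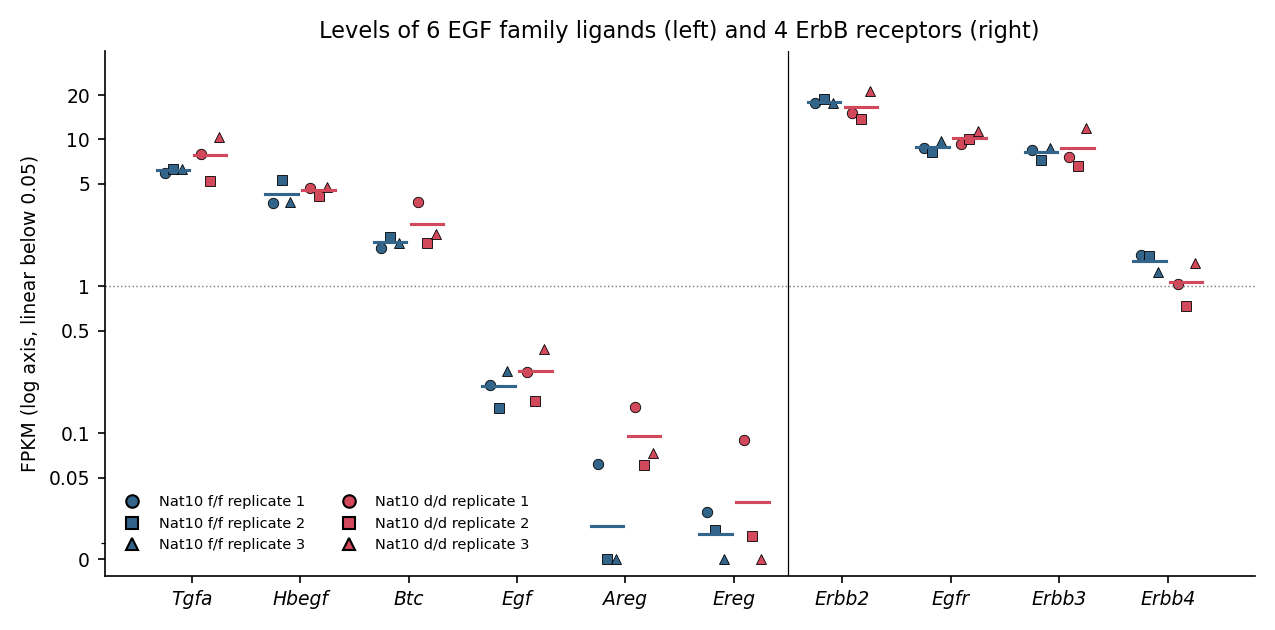
FPKM of each ligand and receptor gene (x axis) in each library, on an axis that is logarithmic above 0.05 and linear below it; points are libraries, horizontal bars group means, and the dotted line marks 1 FPKM. Egf, Areg and Ereg lie below 1 FPKM in all 6 libraries, and Erbb2 lies at 13.7 FPKM or above in all 6.

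Among the ligands, Areg, Ereg and Btc are neighbours in the genome but had different levels. In GENCODE M21 (GRCm38, the assembly also called mm10) the genes Epgn (epigen, another EGF family ligand), Ereg, Areg and Btc are the 4 protein-coding genes lying wholly within 376 kb of chromosome 5, from 91027464 to 91402994. Areg (ENSMUSG00000029378) occupies 91139599 to 91148432 on the plus strand, Ereg (ENSMUSG00000029377) 91074622 to 91093646 on the plus strand, and Btc (ENSMUSG00000082361) 91357261 to 91402994 on the minus strand. Btc was at 1.82 FPKM or above in every library, while Areg reached at most 0.152 FPKM, Ereg 0.0907 FPKM and Epgn 0.0992 FPKM. The stretches of 200 bases directly upstream of the starts of Areg and Btc are shown as the low and the expressed gene of this block, with those of Tgfa and Erbb2 as the most abundant ligand and receptor. They were read from RefSeq's promoter table (build GRCm38.p6), in which entries for 7 of the 10 genes were searched. Sequences run 5′ to 3′ on the gene's own strand, and capitals mark matches to 3 motifs searched on both strands, TGACGTCA (the cAMP response element, CRE), TATAAA (the TATA box) and GGGCGG (the GC box). Positions are chr5:91139399-91139598 (plus strand) for Areg, chr5:91402995-91403194 (minus strand) for Btc, chr6:86195022-86195221 (plus strand) for Tgfa and chr11:98412270-98412469 (plus strand) for Erbb2.
Areg: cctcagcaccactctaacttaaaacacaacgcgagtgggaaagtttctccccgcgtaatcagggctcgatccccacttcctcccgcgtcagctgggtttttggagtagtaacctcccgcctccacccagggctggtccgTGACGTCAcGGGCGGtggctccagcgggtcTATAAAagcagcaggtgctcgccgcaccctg
Btc: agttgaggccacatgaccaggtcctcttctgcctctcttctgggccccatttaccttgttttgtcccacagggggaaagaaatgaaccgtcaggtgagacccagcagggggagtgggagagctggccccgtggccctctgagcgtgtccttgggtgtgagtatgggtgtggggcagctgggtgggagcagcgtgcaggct
Tgfa: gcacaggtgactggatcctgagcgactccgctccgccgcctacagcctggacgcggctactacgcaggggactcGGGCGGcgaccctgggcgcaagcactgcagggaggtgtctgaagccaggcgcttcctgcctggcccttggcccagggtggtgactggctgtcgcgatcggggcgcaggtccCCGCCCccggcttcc
Erbb2: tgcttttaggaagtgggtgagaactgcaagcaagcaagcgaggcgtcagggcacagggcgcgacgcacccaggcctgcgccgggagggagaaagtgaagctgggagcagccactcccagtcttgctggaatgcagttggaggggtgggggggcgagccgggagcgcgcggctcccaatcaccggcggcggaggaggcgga
Areg carried 1 CRE, 1 TATA box and, between them, 1 GC box in this stretch. In RefSeq's 300-base windows, a CRE was found in 1.79% of 32851 promoters, a TATA box in 13.6% and a GC box in 35.7%. Over 300-base windows, Areg held 1 CRE, 1 TATA box and 2 GC boxes, Tgfa 2 GC boxes and Egfr 1. None of the 3 motifs was found for Btc, Erbb2, Erbb4 or either of the 2 Egf entries. The window of Btc held 5 CG dinucleotides, against 21 for Areg, 24 for Tgfa, 21 for Erbb2, 17 for Erbb4, 15 for Egfr, 0 and 17 for Egf and a median of 7 over all promoters. A match or its absence describes the letters only.

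Areg, which encodes amphiregulin, was at the limit of detection in both groups. It was listed at 0.0615, 0 and 0 FPKM in control replicates 1, 2 and 3 and at 0.152, 0.0607 and 0.0737 FPKM in Nat10-deleted replicates 1, 2 and 3. With the value of control replicate 1 taken as 1 step and scaled by relative depth, these are 1, 0 and 0 steps in controls and 1.99, 1 and 1 steps in deleted libraries, values that single fragments would give. All 6 values lay below the 3-step floor, which was 0.182 to 0.229 FPKM by library, so no fold is given and a difference was not detectable at this depth. By exact permutation of the group labels the two-sided p for Areg was 0.2.

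Ereg (epiregulin) and Egf (epidermal growth factor) were also too low for the test across genes, which required at least 1 FPKM in at least 3 libraries. Ereg was listed at 0.0291, 0.018 and 0 FPKM in controls and at 0.0907, 0.0143 and 0 FPKM in deleted uteri (exact permutation test, two-sided p = 0.9). Egf (ENSMUSG00000028017; chromosome 3, 129677565 to 129755316, minus strand) was detected in 6 of 6 libraries, at 0.213, 0.15 and 0.266 FPKM in controls and 0.262, 0.165 and 0.375 FPKM in deleted uteri. The 2 groups of Egf values overlapped, with the highest value in Nat10-deleted replicate 3 (exact permutation test, two-sided p = 0.5). Neither gene reached 1 FPKM in any library of either group.

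The remaining 7 genes were tested, and 0 passed. Across all 12640 genes tested with limma, 0 (0%) had an adjusted p under 0.05, and 630 (4.98%) had an unadjusted p under 0.05, 339 of them with a higher mean in deleted uteri and 291 with a lower one (259 and 414 after quantile normalization). Among the 7 genes the count at an unadjusted p under 0.05 was 0. Groups failed to overlap for 1356 genes tested (10.7%), and for 0 of the 7. By mean log2(FPKM + 1), 5 of the 7 were higher and 2 lower in deleted uteri, beside 56.6% higher and 43.4% lower among all tested genes; the share of all tested genes that were higher was 50% with medians centred, 49.1% with quantile-normalized values and 47.9% with values scaled to the upper quartile. The median difference of the 7 was 0.08 on the log2(FPKM + 1) scale, the scale of all differences here, against 0.03 over all tested genes. Under these 3 other scalings, in the same order, the median of the 7 was 0.06, 0.06 and 0.05 and that of all tested genes 0, -0.004 and -0.009. The log2(FPKM + 1) scale understates differences of low genes.

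Tgfa (ENSMUSG00000029999; chromosome 6, 86195223 to 86275719, plus strand) encodes transforming growth factor alpha and was the most abundant ligand. It was at 5.94, 6.28 and 6.32 FPKM in control replicates 1, 2 and 3, and at 7.98, 5.21 and 10.4 FPKM in Nat10-deleted replicates 1, 2 and 3. The controls lay close together, at 6.18 ± 0.208 FPKM (SD, n = 3), while the deleted libraries, at 7.86 ± 2.6 FPKM (SD, n = 3), fell on both sides of them: replicates 1 and 3 above every control, replicate 2 below every control. The log2 difference was 0.26 (95% interval -0.24 to 0.76; limma adjusted p = 0.935). With Nat10-deleted replicate 2 left out it was 0.49 (limma adjusted p = 0.225, unadjusted p = 0.00763, in a fit where 13.7% of all tested genes had an unadjusted p under 0.05), and with Nat10-deleted replicate 3 left out 0.06. On the log2 scale the SD of Tgfa in deleted uteri was 10.5 times its SD in controls; the median of this ratio over tested genes was 1.73 and 97.7% of tested genes had a smaller ratio.

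Hbegf (ENSMUSG00000024486), which encodes heparin-binding EGF-like growth factor, varied less in deleted uteri than in controls. Its values were 3.67, 5.28 and 3.77 FPKM in controls and 4.66, 4.12 and 4.75 FPKM in deleted uteri. Control replicate 2 was the highest of all 6 libraries and the other controls were the lowest, so the deleted values lay inside the control range. The means were 4.24 ± 0.905 and 4.51 ± 0.343 FPKM (SD, n = 3 each), a log2 difference of 0.08 (95% interval -0.28 to 0.45; limma adjusted p = 0.977). The difference was 0.22 without control replicate 2 and between 0.01 and 0.14 without any other single library.

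Btc, the betacellulin gene, had 1 high library. It was at 1.82, 2.17 and 1.97 FPKM in controls and at 3.76, 1.97 and 2.26 FPKM in deleted uteri. Nat10-deleted replicate 1 lay above all the others, replicate 3 just above the controls and replicate 2 inside their range. The log2 difference was 0.26 (95% interval -0.21 to 0.74; limma adjusted p = 0.926). With Nat10-deleted replicate 1 left out it was 0.06, and with replicate 2 of that group left out 0.4. With array quality weights, which give less weight to libraries that stand apart over all genes, the difference was 0.6 (limma adjusted p = 0.0587). In that fit 29.5% of all tested genes had an unadjusted p under 0.05. Btc stood at 0.67, -0.01 and 0.13 from the control mean in Nat10-deleted replicates 1, 2 and 3. The weighted difference thus lay close to the value of replicate 1 alone. Ltf, the oestrogen-responsive lactotransferrin gene, was likewise highest in Nat10-deleted replicate 1, at 5.19 FPKM against 2.02 to 2.78 FPKM in the other 5 libraries. In this library 18.5% of all tested genes were highest.

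Summed over the 6 ligand genes, values were 11.7, 13.9 and 12.3 FPKM in controls and 16.9, 11.5 and 17.9 FPKM in deleted uteri, with Nat10-deleted replicate 2 below every control and the other deleted libraries above. Tgfa made up 45.2% to 58.2% of this sum, Hbegf 26.6% to 38% and Btc 12.7% to 22.2%. Egf, Areg and Ereg contributed at most 2.16%, 0.901% and 0.537%.

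Egfr (ENSMUSG00000020122; chromosome 11, 16752203 to 16918158, plus strand), the gene of the receptor shared by all 6 ligands, was slightly higher by its mean. Its values were 8.66, 8.24 and 9.81 FPKM in controls and 9.34, 10.1 and 11.4 FPKM in deleted uteri. Nat10-deleted replicates 2 and 3 lay above every control, and replicate 1 lay below control replicate 3, so the groups overlapped. The means were 8.9 ± 0.815 and 10.3 ± 1.05 FPKM (SD, n = 3 each), a log2 difference of 0.19 (95% interval -0.1 to 0.47; limma adjusted p = 0.924). Leaving out any 1 library gave differences between 0.11 and 0.25.

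Erbb2 (ENSMUSG00000062312; chromosome 11, 98412470 to 98437716, plus strand) was the most abundant of the 10 genes. It was at 17.6, 18.8 and 17.7 FPKM in controls and at 15, 13.7 and 21.4 FPKM in deleted uteri. Nat10-deleted replicates 1 and 2 lay below every control and replicate 3 above every control, so that the log2 difference of -0.13 (95% interval -0.52 to 0.26; limma adjusted p = 0.954) averages libraries on opposite sides. Without Nat10-deleted replicate 3 it was -0.31 (limma adjusted p = 0.437, unadjusted p = 0.0276, in a fit where 11.1% of all tested genes had an unadjusted p under 0.05), and without replicate 2 it was -0.004. The ratio of the SD in deleted uteri to that in controls was 6.2, larger than for 93% of tested genes. Exons of Erbb2 overlap those of Mien1 on the opposite strand, and since the use of strand in counting is not given in the sources used here, their reads may not have been told apart; Mien1 was at 37.3 to 51.4 FPKM and had a log2 difference of -0.03 (limma adjusted p = 0.992), which turned to 0.1 without control replicate 2.

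Erbb3 (ENSMUSG00000018166; chromosome 10, 128567523 to 128589652, minus strand) had no stable direction. It was at 8.44, 7.21 and 8.79 FPKM in controls and at 7.58, 6.6 and 11.8 FPKM in deleted uteri, again lowest in Nat10-deleted replicate 2 and highest in replicate 3. The log2 difference was 0.05 (95% interval -0.42 to 0.52; limma adjusted p = 0.989). With Nat10-deleted replicate 3 left out the sign turned, to -0.18. With replicate 2 of that group left out it was 0.2, and with control replicate 2 left out -0.03.

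Erbb4 (ENSMUSG00000062209; chromosome 1, 68032186 to 69108059, minus strand), a receptor for neuregulins as well as for some EGF family ligands, was the least abundant receptor. Its values were 1.63, 1.61 and 1.25 FPKM in controls and 1.03, 0.734 and 1.44 FPKM in deleted uteri. Nat10-deleted replicates 1 and 2 lay below every control, while replicate 3 lay within the control range. The means were 1.5 ± 0.218 and 1.07 ± 0.353 FPKM (SD, n = 3 each), a log2 difference of -0.28 (95% interval -0.73 to 0.16; limma adjusted p = 0.924). Without Nat10-deleted replicate 2 the difference was -0.16, and without replicate 3 it was -0.41. Erbb4 was at or above 1 FPKM in 5 of 6 libraries.

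**Figure D2:**
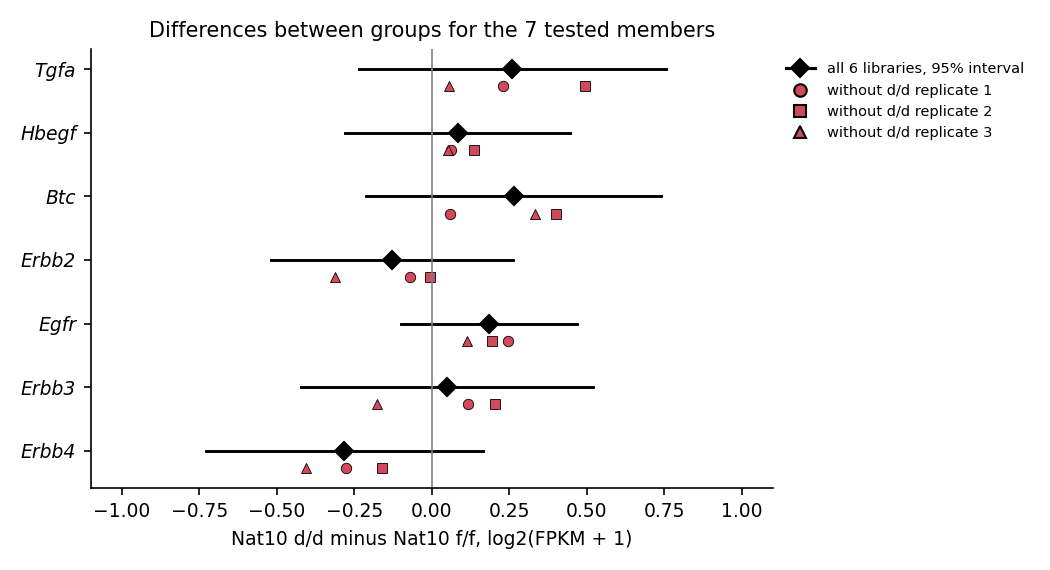
Difference between Nat10-deleted and control uteri for the 7 tested genes, in log2(FPKM + 1); diamonds and lines give the estimate and its 95% interval from all 6 libraries, and red symbols the estimate without 1 Nat10-deleted library. All 7 intervals include 0, and the estimate of Erbb3 lies at -0.18 without replicate 3 and at 0.2 without replicate 2.

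Several of these genes shared an order among the deleted libraries, described here after their values were seen. In 5 of the 7 tested genes (Tgfa, Hbegf, Erbb2, Erbb3 and Erbb4) replicate 2 was lowest, replicate 1 intermediate and replicate 3 highest, an order found in 24.6% of all tested genes. Of the 7 tested genes, 4 (Tgfa, Egfr, Erbb2 and Erbb3) were highest in Nat10-deleted replicate 3, where 22.1% of all tested genes were highest. The 4 genes lowest in Nat10-deleted replicate 2 were Tgfa, Erbb2, Erbb3 and Erbb4, where 25.7% of all tested genes were lowest. The 4 receptors summed to 36.3, 35.9 and 37.5 FPKM in controls and to 33, 31.1 and 46.1 FPKM in deleted replicates 1, 2 and 3. The 12 epithelial markers were all detected in every library. By their means 9 of them were higher in deleted uteri, beside 56.6% of all tested genes. The 12 markers summed to 890 to 957 FPKM in controls and to 977, 858 and 1160 FPKM in deleted replicates 1, 2 and 3. The sum and the single genes did not go the same way in deleted replicate 2: 4 of the 12 markers (Cldn3, Cldn4, Krt18 and Krt19) were lowest there, with Cldn3 at 124 FPKM against 201 to 232 FPKM in controls, while 5 (Krt8, Epcam, Esrp1, Elf3 and Wnt7a) were highest there. The median of the 12 markers above the control mean was 0.11, 0.16 and 0.24 on the log2 scale in deleted replicates 1, 2 and 3, and their part in these results was not tested. The 7 Schwann cell markers, a cell type known for high Erbb3, summed to 13.1 to 13.4 FPKM in controls and to 14.9, 11.1 and 15.6 FPKM in deleted uteri; 3 of the 7 passed the filter, Sox10 stood at 0.429 to 0.695 FPKM, and their part was not tested. Relative to Epcam, an epithelial adhesion gene, Erbb2 was at 0.374, 0.373 and 0.311 in controls and at 0.24, 0.213 and 0.37 in deleted uteri, so the groups overlapped on this scale as well. Those of Erbb3 and Tgfa relative to Epcam overlapped too. Epcam itself was not steady, at 47, 50.5 and 56.9 FPKM in controls and 62.8, 64.2 and 58 FPKM in deleted uteri. It was higher without overlap (log2 difference 0.26), as were 6.12% of all tested genes.

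**Figure D3:**
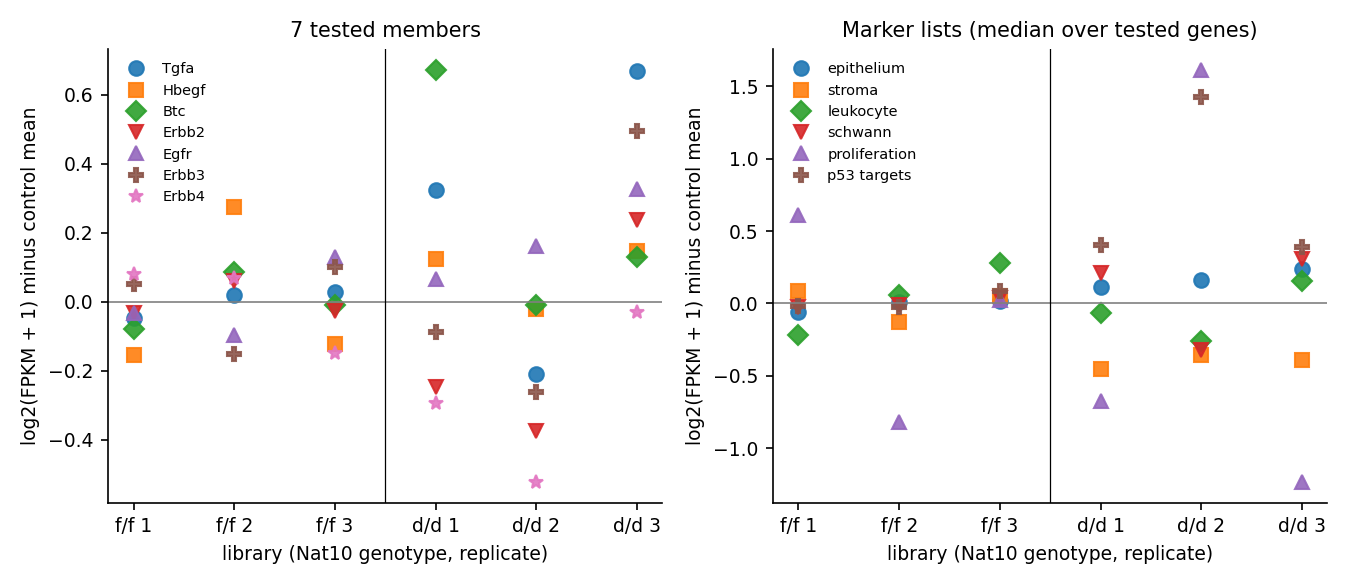
Left, log2(FPKM + 1) of the 7 tested genes minus the control mean in each library (x axis); right, the median of the same quantity over the tested genes of 6 marker lists. Tgfa and Erbb3 stand at 0.67 and 0.49 in Nat10-deleted replicate 3 and at -0.21 and -0.26 in replicate 2, where the proliferation and p53 target medians are at 1.61 and 1.43.

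Tgfa was the tested ligand gene with the largest SD on the log2(FPKM + 1) scale, which understates differences of low genes. The genes whose pattern over the 6 libraries lay closest to Tgfa were Rnf144b, Cobl, AU021092 and Sh3rf2. Likeness was measured as the root mean square difference of centred log2(FPKM + 1) values, which was 0.06 log2 units for each of them against an SD of 0.32 for Tgfa itself. Rnf144b, which encodes a ubiquitin ligase, was at 13.7, 14.2 and 14.9 FPKM in controls and 17.8, 10.9 and 21.9 FPKM in deleted uteri, the same order of deleted libraries. Closest to Erbb3, the receptor gene with the largest SD on that scale, were Msx1 (0.05), Caskin1 (0.05), Trib3 (0.06) and Mafk (0.06). The measure and the 6 libraries were the same. Msx1, a homeobox gene of the uterus, was at 122, 118 and 127 FPKM in controls and 114, 103 and 173 FPKM in deleted uteri. Of these 8 genes, all except AU021092 and Sh3rf2 changed the sign of their difference without at least 1 library or under another scaling. These are descriptions of 6 libraries, chosen by closeness among all tested genes.

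Other genes of the pathway were taken from lists of the remaining ligands, shedding proteases, transducers, negative regulators, ERK-responsive genes and uterine hormone genes. In none of these 6 lists did a gene pass an adjusted p of 0.05 in limma. Of the 5 other ligand genes, the neuregulin genes Nrg1 and Nrg2, whose products bind both the Erbb3 and the Erbb4 product, and Nrg4, whose product binds that of Erbb4, were tested, with a median log2 difference of 0.02. Nrg2 was at 4.96, 4.15 and 4.94 FPKM in controls and 3.7, 3.92 and 4.23 FPKM in deleted uteri (log2 difference -0.2), and the groups overlapped. Nrg4 was at 2.44, 2.29 and 3.02 FPKM in controls and 2.94, 1.87 and 3.29 FPKM in deleted uteri (0.03).

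Of the shedding genes, 10 of 11 were found and tested, 3 higher and 7 lower by mean log2(FPKM + 1), as in all list counts here, with a median of -0.03; by mean FPKM 5 were higher. Adam17, the main sheddase of Tgfa, Areg and Hbegf, was at 15.9 FPKM in controls and 16.1 FPKM in deleted uteri by mean FPKM, a log2 difference of 0.01 (95% interval -0.27 to 0.28) that was -0.02 after median centring and -0.08 without Nat10-deleted replicate 2. The smallest p-values in this list belonged to Adam19 (log2 difference -0.24), a related metalloprotease, and Rhbdf2 (0.22), an iRhom that carries the Adam17 product to the cell surface; their limma adjusted p was 0.922 each. Rhbdf2 was at 7.57, 7.57 and 7.96 FPKM in controls and 9.61, 7.72 and 10.3 FPKM in deleted uteri, lowest of the deleted libraries in replicate 2, and its difference was 0.15 without replicate 3. Of the 28 transducers, 12 were higher and 16 lower with a median of -0.01, and the smallest p-values were those of Stat5a (-0.2), a transcription factor, and Nck1 (0.2), an adaptor; the groups of Stat5a did not overlap, as in 10.7% of all tested genes, and those of Nck1 did. Without Nat10-deleted replicate 1 the difference of Nck1 was 0.11. The 22 negative regulators had 7 higher and 15 lower genes and a median of -0.05. Spred2, an inhibitor of the Ras pathway, had a log2 difference of -0.27 and Dusp5, a nuclear ERK phosphatase, -0.24, with overlapping groups. Without Nat10-deleted replicate 1 these were -0.17 and -0.43, and Dusp5 was at -0.09 without replicate 2 and Spred2 at -0.42 without replicate 3.

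Among 14 tested ERK-responsive genes, 9 were higher and 5 lower, with a median log2 difference of 0.05. Fos, an immediate early gene that also responds to tissue handling, was at 1.8, 3.43 and 3.51 FPKM in controls and at 5.62, 6.01 and 5.86 FPKM in deleted uteri. Its groups did not overlap, and its log2 difference was 0.84 (SE 0.2; limma adjusted p = 0.922, unadjusted p = 0.0036). Myc had a log2 difference of -0.32 (95% interval -0.66 to 0.03), or -0.19 without Nat10-deleted replicate 2. Dusp6 and Etv5, which respond to sustained ERK signalling, differed by -0.01 and -0.04, and both turned to the other sign without that library. Of the 8 tested uterine hormone genes, 4 were higher and 4 lower. Pgr, the progesterone receptor gene, was at 73.8, 62.2 and 60.3 FPKM in controls and at 35.3, 25.4 and 32.7 FPKM in deleted uteri, without overlap (log2 difference -1.06, limma adjusted p = 0.669). Ltf had a log2 difference of 0.41 (limma adjusted p = 0.922), which was 0.14 when Nat10-deleted replicate 1 was left out and was 0.59 when replicate 2 was. Array quality weights gave 0.84 (limma adjusted p = 0.0486).

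**Figure D4:**
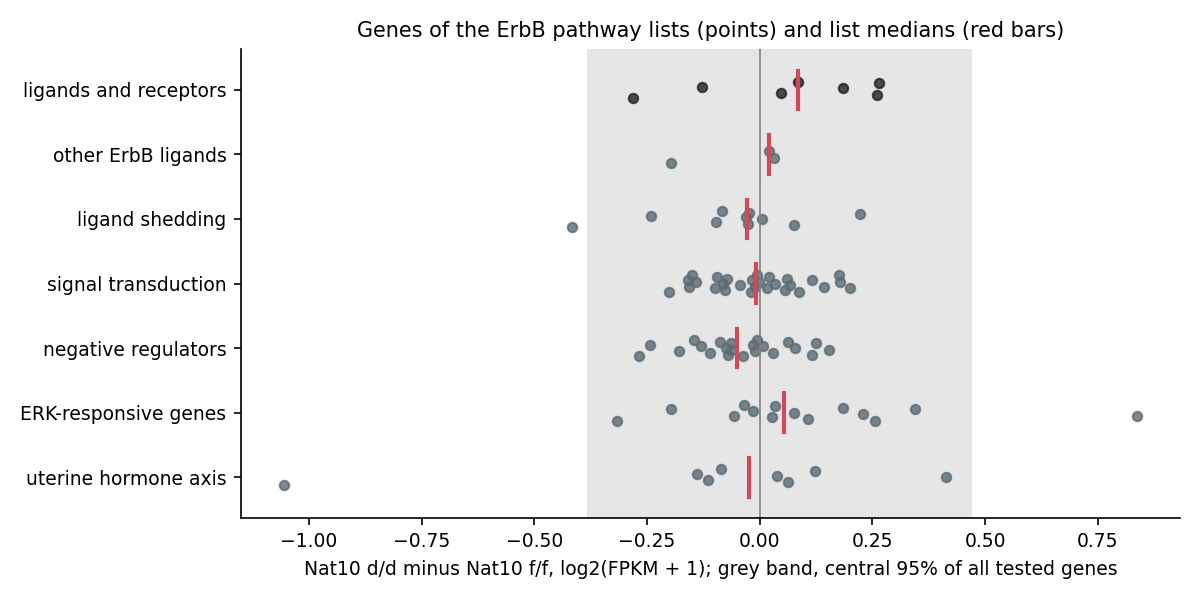
Difference between Nat10-deleted and control uteri, in log2(FPKM + 1), for each tested gene of the ligand and receptor set and of 6 pathway lists (points), with list medians as red bars and the central 95% of all tested genes as a grey band. All 7 ligand and receptor genes lie inside the band, which runs from -0.38 to 0.47; Pgr, at -1.06, and Fos, at 0.84, lie farthest outside it.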

How the data were processed

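The 6 deposited tables, 1 for each library, list the same 20637 genes by Ensembl identifier and symbol. The deposited values were taken as FPKM: the submitters' processing notes name HISAT2 2.2.1 and Cufflinks 2.2.1 and the build mm10, and the values are not whole and have unequal sums (500764 to 549263); no header states the unit. Gene annotation, gene filter and strandedness are not given in the sources used here. Total read counts are unknown, so no counting intervals are given; relative depth is the most frequent ratio of values under 0.15 FPKM to control replicate 1.

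Groups and replicate numbers came from the sample titles. Values were analysed as log2(FPKM + 1); genes at 1 FPKM or more in at least 3 libraries were tested with limma 3.58.1 in R 4.3.3 (lmFit, eBayes with trend), with p-values adjusted by Benjamini-Hochberg over all 12640. Single values were compared by two-sided exact permutation over the 20 label splits. The fit was tested on simulated data. Python 3.11.15, pandas 2.3.3 and matplotlib 3.10.9 served for annotation and figures.

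The 10 genes, the lists and the tests were chosen with earlier results of these data known. Named are the 10 genes, the 2 genes of each pathway list with the smallest p, and the 4 genes closest in pattern to the most variable ligand and receptor; Adam17, Dusp6, Etv5, Mien1, Epcam and Pdgfra were added by choice, and Nrg1, Epgn, Sox10, Mfap5, Wnt5a, Twist2, Kdr and 8 other epithelial markers with their values seen.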

Additional observations from a re-analysis of the deposited data

How the results depend on the processing

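No ligand or receptor gene was called under any of the 16 alternatives, which were median centring, quantile normalization, scaling to the upper quartile, 2 other low-value filters, a pseudocount of 0.1, no trend, robust eBayes, array quality weights, a replicate block and leaving out each library; Erbb4 was not tested where all 6 libraries had to reach 1 FPKM. Array quality weights called 316 genes, with 3730 at an unadjusted p under 0.05, and gave Nat10 a log2 difference of -1.09 (limma adjusted p = 0.0386), Erbb3 -0.047, Dusp5 0.053, Msx1 -0.041, Trib3 -0.099, Adam17 -0.027 and Etv5 0.034. The same weights called Pgr (log2 difference -0.93, limma adjusted p = 0.0275) and Ltf (0.84, 0.0486). Ltf was at 5.19 FPKM in Nat10-deleted replicate 1 against 2.32 and 2.78 FPKM in replicates 2 and 3. Its difference was 0.144 without replicate 1. Quantile normalization gave Nrg4 -0.003, Msx1 -0.001, Caskin1 0.021 and Adam17 -0.03. Median centring gave Trib3 -0.028 and Adam17 -0.022, upper-quartile scaling -0.025 and -0.033, and a pseudocount of 0.1 gave Trib3 -0.019. Leaving out 1 library gave between 0 and 12 called genes, the 12 without Nat10-deleted replicate 2, and differences of -1.28 to -0.95 for Nat10, -0.175 to 0.203 for Erbb3 and -0.086 to 0.205 for Nrg4. The same range was -0.026 to 0.443 for Rnf144b, -0.005 to 0.41 for Cobl, -0.168 to 0.203 for Msx1, -0.24 to 0.131 for Caskin1, -0.2 to 0.136 for Trib3 and -0.094 to 0.272 for Mafk. It was -0.075 to 0.075 for Adam17, -0.038 to 0.008 for Dusp6, -0.086 to 0.038 for Etv5 and -0.124 to 0.103 for Mien1, and 0.144 to 0.592 for Ltf. The cause was not tested. The other genes with a reported difference kept their direction under all alternatives that tested them. With the replicate number as a block, 0 genes were called and 726 had an unadjusted p under 0.05; deviations of same-numbered libraries had correlations of -0.34, -0.03 and 0.1, so the numbers were not taken as pairs. Without the low-value filter Egf had a log2 difference of 0.07 (limma adjusted p = 0.939), and Areg and Ereg were not called either. Depth limits Areg, whose values all lay below the 3-step floor.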

Other observations

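The makeup of the receptor pool was looked at after the values were seen. As a share of the summed FPKM of the 4 receptor genes, Erbb4 was at 4.5%, 4.49% and 3.32% in control replicates 1, 2 and 3 and at 3.14%, 2.36% and 3.12% in Nat10-deleted replicates 1, 2 and 3. The Erbb2 share was 48.4%, 52.5% and 47.1% in controls and 45.6%, 44% and 46.5% in deleted uteri. In both cases every deleted library lay below every control. Of the 10 shares computed, 6 over the ligand sum and 4 over the receptor sum, these 2 had groups that did not overlap. Single genes did so in 10.7% of cases, but no such rate was computed for shares. Shares of 1 sum are not independent of each other. The Egfr share was 23.9%, 22.9% and 26.1% in controls and 28.3%, 32.4% and 24.7% in deleted uteri, with Nat10-deleted replicate 3 inside the control range.

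The ratio of Egfr to Erbb2 was 0.493, 0.438 and 0.555 in controls and 0.621, 0.737 and 0.532 in deleted uteri, with replicate 3 again inside the control range. The ratio of Egfr to Pdgfra, a stromal receptor gene, was 0.11, 0.127 and 0.107 in controls and 0.16, 0.255 and 0.148 in deleted uteri, all above the controls. Pdgfra itself was at 78.6, 65.1 and 91.7 FPKM in controls and at 58.3, 39.5 and 77.3 FPKM in deleted uteri, with overlapping groups (log2 difference -0.46, and -0.21 without Nat10-deleted replicate 2). The ratio of Erbb4 to Erbb2 was 0.093, 0.0856 and 0.0705 in controls and 0.0688, 0.0537 and 0.067 in deleted uteri, all below the controls. These were the 2 ratios without overlap among 9 computed after the values were seen. Single genes did not overlap in 10.7% of cases, but no such rate was computed for ratios. Ratios that share a gene are not independent. The summed stromal markers were at 4281, 3705 and 4242 FPKM in controls and 3082, 4161 and 3015 FPKM in deleted uteri. Their median deviation from the control mean, on the log2 scale, was -0.455, -0.358 and -0.391 in deleted replicates 1, 2 and 3. In controls it was 0.088, -0.128 and 0.049. The sum and the median thus differed in deleted replicate 2, and the part of the stromal markers in these ratios was not tested.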
